A study of Sus scrofa with 20 samples.

Results

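The genes described here encode the machinery that releases synaptic vesicles and takes them back, 42 genes chosen by symbol from the platform annotation of the array. Of these, 37 had a probe set under their symbol and 36 had at least 1 that was bright enough to be tested, among 10317 genes with such a probe set. SYP, RAB3A, UNC13A, SCAMP1 and PPFIA3 had no probe set under these symbols and were not analysed here. SYT4, a synaptotagmin of dense-core vesicles, was on the array but was too dim to pass the filter, at 4.70 log2 units in HR animals and 4.62 in LR animals on average. In all, 61 of 78 probe sets of these genes were kept, out of 23861 kept of 47845 on the array.

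At a synapse, vesicles filled with transmitter are tethered near the active zone, docked, primed and fused with the plasma membrane when calcium enters. Fusion is driven by SNARE proteins, which zip into a bundle that joins the membranes of vesicle and cell, and the ATPase NSF takes the bundle apart again. The vesicle membrane is then recovered by endocytosis. In the hypothalamus the same machinery serves fast synaptic transmission, and relatives of it serve the release of peptide hormones from dense-core vesicles.

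Hypothalami came from pigs of the German Landrace breed, labelled adult and slaughtered, per the study, at some months of age, and were profiled on Affymetrix Porcine Snowball arrays, with 1 array per animal. There were 10 animals of high-reactive (HR) and 10 of low-reactive (LR) coping pattern, that is, of opposite extremes in how they responded to restraint as piglets. The labels name no treatment. The study also chose the animals by their haplotype at a coping locus on chromosome 12, so behaviour and haplotype cannot be told apart. Sex and hybridisation batch were not given in the labels.

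The arrays had similar medians, between 5.14 and 5.26 log2 units, and correlated with each other at 0.643 to 0.985 over the kept probe sets. LR replicate 3 stood apart. Its mean of the thalamus markers (7 of 8 measured) was 1.31 above the mean of all arrays and that of the hypothalamus markers (10 of 12 measured) was 0.82 below, whereas the other arrays lay between -0.21 and 0.30 and between -0.31 and 0.32. A second measure that varied between arrays was the background, taken as the mean of 69 control probe sets that have no transcript to bind and so read unspecific signal. It averaged 4.09 ± 0.26 in HR animals (3.73 to 4.44) and 4.01 ± 0.17 in LR animals (3.68 to 4.22; SD, n = 10 each). Many differences depended on this array or on the background, and values without the one or with the other as a covariate in limma follow below.

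Whether release genes differed between the coping patterns was tested with limma for each probe set. No probe set on the array passed the threshold after Benjamini-Hochberg adjustment (0 of 23861, 0%), and the smallest adjusted p was 0.861. An exact rank-sum test also gave 0, and 1091 probe sets had an unadjusted p under 0.05 in limma. Among the vesicle genes, 4 of 61 kept probe sets were lower in HR animals at an unadjusted p under 0.05 and 0 were higher. Over all kept probe sets these shares were 3.36% lower and 1.21% higher. Counted by the brightest probe set of each gene, 2 of 36 genes (AMPH and SYT11) were lower and 0 higher, against 3.38% and 0.804% of all genes. The 4 probe sets belong to 3 genes, AMPH, SYT11 (2 probe sets) and SNAP91, so these counts are small.

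By direction alone, 27 of the 36 genes had a lower mean in HR animals and 9 a higher one, with a median difference of -0.07 log2 units. Over all genes the median was 0.00, with 5154 lower and 5163 higher. Without LR replicate 3, 24 of the 36 were lower and the median was -0.06, and over all genes 5481 of 10317 were lower. In that fit 1 of the 36 genes (AMPH) was lower at an unadjusted limma p under 0.05 and 0 were higher, against 2.82% and 0.397% of all genes. For 36 of 36 genes the 95% interval stayed within a 2-fold difference, and its median half-width was 0.33. The largest difference in size was -0.48, for NSF. The HR and LR arrays overlapped for every one of the 36. The share over all genes was not counted, so this is not read as particular to the vesicle genes.

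**Figure D1:**
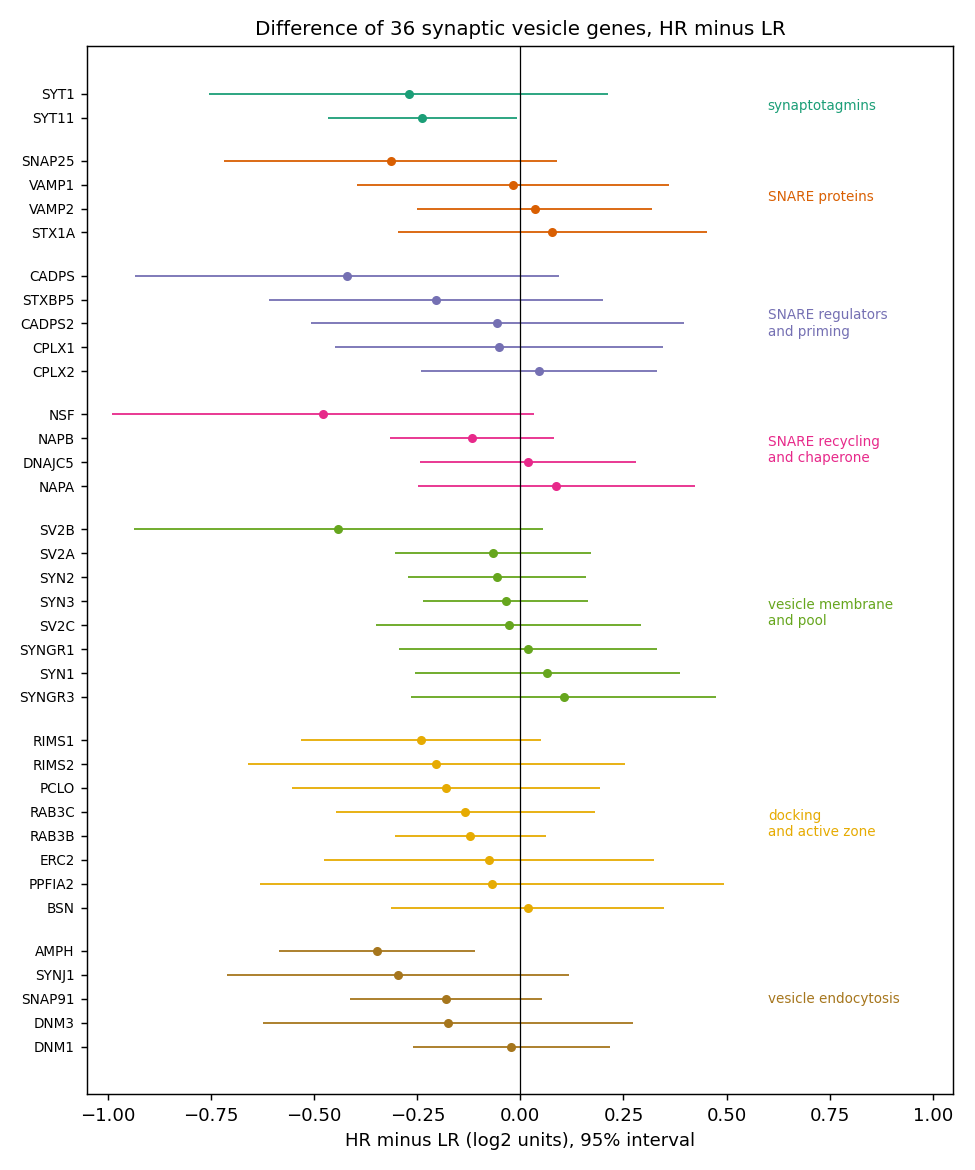
HR minus LR difference of the brightest probe set of 36 vesicle genes in log2 units (points) with the 95% interval from limma (lines, 10 HR and 10 LR arrays), grouped by role. Points lie left of 0 for 27 genes, and the interval leaves out 0 for AMPH and SYT11.

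The synaptotagmins sit on the vesicle. SYT1 is the calcium sensor of fast release, whereas SYT11 does not bind calcium and is linked to vesicle recovery. SYT11 ranged over 10.78, 11.32 and 11.58 (lowest, median, highest) in HR animals and over 11.30, 11.52 and 11.65 in LR animals. The lowest 5 HR arrays lay below every LR array, and the others lay within the LR range. The difference was -0.24 ± 0.11 (SE), with p = 0.0423 in limma and an adjusted p of 0.861. A second SYT11 probe set differed by -0.42 ± 0.20 (limma p = 0.0414) and correlated with the first at 0.979, so it repeats the same animals. Without LR replicate 3 the first had p = 0.0651 in limma, and without HR replicate 5, p = 0.0893, and the limma p stayed under 0.05 in 9 of 20 fits that left out 1 array. SYT1 ranged over 9.25, 10.56 and 11.15 in HR animals and over 9.99, 10.64 and 11.67 in LR animals. Its difference of -0.27 ± 0.23 did not pass (limma p = 0.257). HR replicate 5 and LR replicate 3 formed its ends, and it was -0.14 without the first, -0.16 without the second and -0.08 with the background as covariate.

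Of the SNARE proteins, SNAP25 and STX1A sit on the plasma membrane and VAMP1 and VAMP2 on the vesicle. SNAP25 ranged over 9.92, 11.13 and 11.58 in HR animals and over 10.58, 11.24 and 12.01 in LR animals, with a difference of -0.31 ± 0.19 (limma p = 0.121), or -0.17 with the background as covariate. A second, dimmer SNAP25 probe set differed by -0.03 ± 0.36 (limma p = 0.941), and by 0.26 with the covariate. It correlated with the first at 0.621. STX1A ranged over 6.24, 7.07 and 7.88 in HR animals and over 6.66, 6.98 and 7.55 in LR animals, with a difference of 0.08 ± 0.18 (limma p = 0.670). For SNAP25 and STX1A, the groups overlapped over most of their range, and STX1A was at its lowest and its highest in HR animals. VAMP2 had 9.03, 9.89 and 10.30 in HR animals and 9.58, 9.75 and 10.15 in LR animals, a difference of 0.03 ± 0.14 (limma p = 0.802). VAMP1 differed by -0.02 ± 0.18. SNARE partners differed in how they followed each other over the arrays. SNAP25 correlated with STX1A at -0.77 (Spearman -0.58) and with VAMP2 at -0.54 (-0.43), whereas STX1A correlated with VAMP2 at 0.84 (0.77). In the residuals from the background these correlations were -0.34, 0.01 and 0.69.

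The regulators of SNARE assembly and priming included STXBP5 (tomosyn), which competes for syntaxin, the complexins CPLX1 and CPLX2, which bind the assembled bundle, and CADPS and CADPS2, which prime dense-core vesicles. CADPS ranged over 7.77, 8.94 and 9.63 in HR animals and over 8.40, 9.29 and 10.36 in LR animals. Its difference of -0.42 ± 0.25 did not pass (limma p = 0.105), and it was -0.30 without LR replicate 3 and -0.21 once the background was a covariate. STXBP5 ranged over 5.90, 6.99 and 7.80 in HR animals and over 6.58, 7.15 and 7.75 in LR animals, with -0.20 ± 0.20 (limma p = 0.306). STXBP5 was at -0.09 without HR replicate 5, -0.14 without LR replicate 3 and -0.04 once the background was a covariate. The ranges of both genes overlapped, with 3 HR arrays below all LR arrays for CADPS and 2 for STXBP5. CADPS2, CPLX1 and CPLX2 differed by -0.06 ± 0.22, -0.05 ± 0.19 and 0.05 ± 0.14. Their signs were not stable, with CPLX1 at 0.04 without LR replicate 3, and CADPS2 at 0.13 and CPLX2 at -0.05 with the background as covariate.

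After fusion, NSF separates the SNARE proteins together with the adaptors alpha-SNAP (NAPA) and beta-SNAP (NAPB), and the chaperone cysteine string protein (DNAJC5) keeps SNAP25 folded. NSF ranged over 9.54, 11.07 and 11.66 in HR animals and over 10.58, 11.29 and 11.81 in LR animals. HR replicates 4, 5 and 10 lay below every LR array and the other 7 lay within the LR range. The difference was -0.48 ± 0.25 (limma p = 0.0658), and a second probe set gave -0.25 ± 0.12 (limma p = 0.0524). The first was at -0.34 without HR replicate 5 and -0.28 with the background as covariate. NAPB ranged over 8.50, 9.05 and 9.32 in HR animals and over 8.88, 9.15 and 9.40 in LR animals, with -0.12 ± 0.10 (limma p = 0.231). HR replicate 9 alone lay below all LR arrays for NAPB, and without it the difference was -0.06. NAPA and DNAJC5 differed by 0.09 ± 0.16 and 0.02 ± 0.13. NSF and VAMP2 were the only 2 of the 36 genes on chromosome 12, which also holds the coping locus. NSF and its adaptor NAPA ran in opposite directions over the arrays, with r = -0.80 (Spearman -0.83), and at -0.05 in the residuals from the background.

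Genes of the vesicle membrane and the reserve pool were the synapsins SYN1 to SYN3, which tether vesicles, the glycoproteins SV2A to SV2C and the tetraspan synaptogyrins SYNGR1 and SYNGR3. Of these 8 genes 5 were lower and 3 higher in HR animals. SV2B had the largest difference of the group, with 7.01, 7.84 and 8.31 in HR animals and 7.18, 7.94 and 9.73 in LR animals. It differed by -0.44 ± 0.24 (limma p = 0.0783), by -0.26 without LR replicate 3, its highest array, and by -0.29 with the background as covariate. SYN1 had 8.87, 9.71 and 10.31 in HR animals and 9.43, 9.62 and 9.96 in LR animals, with 0.07 ± 0.16 (limma p = 0.677). SYNGR3 had 7.82, 8.96 and 9.63 in HR animals and 8.51, 8.82 and 9.17 in LR animals, with 0.10 ± 0.18 (limma p = 0.563). For SYN1 and SYNGR3 the HR arrays spread to both sides of the LR arrays. SYN2, SYN3, SV2A, SV2C and SYNGR1 lay between -0.07 and 0.02, each with an SE between 0.10 and 0.15.

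At the active zone, RAB3 GTPases on the vesicle bind the RIM scaffold proteins, BSN and PCLO form large scaffolds, and ERC2 and the liprin PPFIA2 organise them. Of 8 genes 7 were lower in HR animals, 5 without LR replicate 3 and 6 when the background was a covariate, and none had an unadjusted limma p under 0.05. RIMS1 ranged over 7.45, 7.92 and 8.38 in HR animals and over 7.79, 8.16 and 9.08 in LR animals, with -0.24 ± 0.14 (limma p = 0.100). LR replicate 3 was again highest, and RIMS1 differed by -0.14 both without it and with the background as covariate. RAB3B ranged over 9.45, 9.74 and 10.04 in HR animals and over 9.65, 9.90 and 10.08 in LR animals, with -0.12 ± 0.09 (limma p = 0.182). Both other RAB3B probe sets were below the filter and ran in opposite directions, 1 with 4.61 ± 0.41 in HR animals and 5.18 ± 0.31 in LR animals and 1 with 3.89 ± 0.22 in HR animals and 3.79 ± 0.26 in LR animals (SD, n = 10 each). RIMS2, PCLO and RAB3C differed by -0.20 ± 0.22, -0.18 ± 0.18 and -0.13 ± 0.15. They were -0.09, -0.06 and -0.06 without LR replicate 3, and were -0.02, -0.06 and -0.02 with the background as covariate. ERC2, PPFIA2 and BSN differed by -0.08 ± 0.19, -0.07 ± 0.27 and 0.02 ± 0.16. ERC2 and PPFIA2 changed sign, with 0.02 and 0.07 without LR replicate 3 and 0.08 and 0.15 with the covariate, where BSN was at -0.08.

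In vesicle endocytosis, SNAP91 (AP180) and amphiphysin (AMPH) gather clathrin and dynamin at the membrane, DNM1 and DNM3 are dynamins that cut the vesicle off, and SYNJ1 removes its coat. All 5 genes had a lower mean in HR animals, and AMPH had the smallest p of the 36 genes. AMPH, on chromosome 9 at 108800718 to 108971575 of Sscrofa11.1, ranged over 8.74, 9.20 and 9.49 in HR animals and over 9.26, 9.49 and 10.02 in LR animals. All 10 HR animals lay below the LR mean, 5 HR arrays lay below every LR array and 5 LR arrays above every HR array. The difference was -0.35 ± 0.11 (0.79-fold, 95% interval -0.58 to -0.11), with p = 0.00618 in limma and an adjusted p of 0.861. Without LR replicate 3 it was -0.29 (limma p = 0.0128), and in 20 of 20 fits that left out 1 array the limma p stayed under 0.05. Without the 7 arrays of highest or lowest background, a choice made after seeing the data that leaves 5 HR and 8 LR animals, the AMPH difference was -0.08 (limma p = 0.391). The SYT11 difference was then -0.05 (limma p = 0.620) and that of NSF -0.03 (limma p = 0.846), and 0 of 61 vesicle probe sets had a limma p under 0.05, beside 2.19% of all kept probe sets in either direction.

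SNAP91 had 3 kept probe sets, all lower in HR animals, by -0.35, -0.18 and -0.16. The brightest ranged over 9.56, 10.02 and 10.36 in HR animals and over 10.01, 10.14 and 10.68 in LR animals, with -0.18 ± 0.11 (limma p = 0.120). The dimmest of them had 7.55, 8.54 and 8.87 in HR animals and 8.52, 8.80 and 9.18 in LR animals, with -0.35 ± 0.15 (limma p = 0.0295). SNAP91 thus had a p under 0.05 in 1 of 3 probe sets. SYNJ1, DNM3 and DNM1 differed by -0.30 ± 0.20, -0.18 ± 0.22 and -0.02 ± 0.12. Without LR replicate 3, DNM3 was at -0.07 and SYNJ1 at -0.21, and with the background as covariate DNM3 was at 0.01 and SYNJ1 at -0.12.

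**Figure D2:**
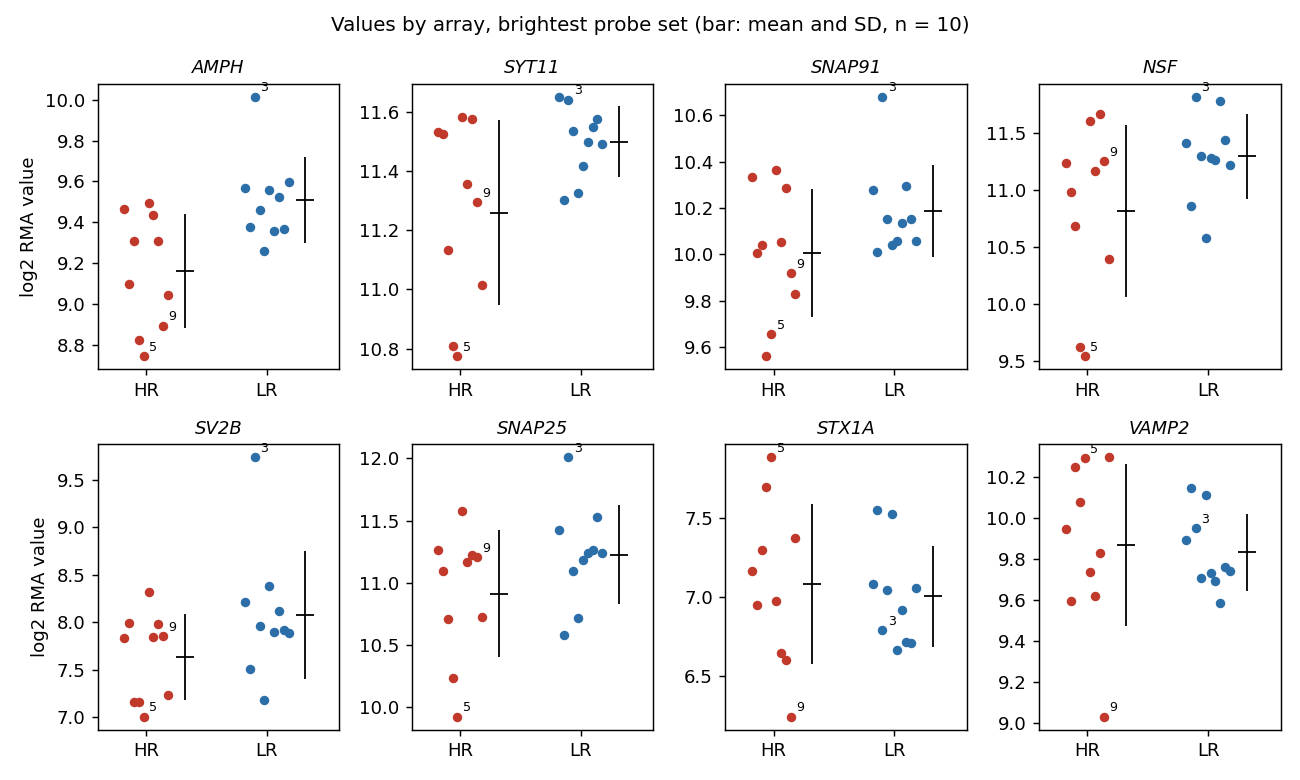
log2 RMA value of the brightest probe set of 8 vesicle genes in each array, HR left and LR right (points, 1 per animal, with mean and SD beside them, n = 10). HR replicates 5 and 9 and LR replicate 3 are numbered, and AMPH is the gene for which all 10 HR arrays lie below the LR mean.

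Across probe sets, 18 genes had several that were kept. In 13 of them all probe sets differed in 1 direction and in 5 (BSN, CPLX1, DNM3, SYN2 and SYNGR1) they did not. The lowest correlation between probe sets of 1 gene was -0.42, in DNM3, and the median of the lowest correlations was 0.87. The brightest DNM3 probe set can bind several transcripts, so its gene is uncertain. The p-values set each difference against the spread within groups, and with 1 array per animal, spread between animals and between arrays was not separated. In tissue samples, fewer neurons and less RNA per neuron cannot be told apart.

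The extremes of the vesicle genes fell on few arrays. HR replicate 5 was the lowest array for 17 of the 36 genes and HR replicate 9 for 15, whereas LR replicate 3 was the highest for 15. These 3 arrays lay near the ends of the background measure, with 4.44 in HR replicate 5, 3.74 in HR replicate 9 and 3.76 in LR replicate 3. LR replicate 8 (3.68) and HR replicate 8 (3.73) had a lower background still, yet each was lowest for 0 and highest for 1 gene. Extremes by array were not counted over all genes. Averaged over the 36 genes, and relative to each gene's mean, HR animals lay between -0.28 and 0.18 (mean -0.06 ± 0.14 SD) and LR animals between -0.07 and 0.44 (mean 0.06 ± 0.15 SD, n = 10 each). The groups overlapped over most of this range. The SD was larger in HR than in LR animals for 31 of 36 genes (86.1%), with a median of 0.45 in HR and 0.30 in LR animals, and the same held for 82.2% of all genes. After a fit to the background measure, the median SD was 0.22 in HR and 0.19 in LR animals and was larger in HR for 24 of the 36. The share over all genes was not counted after this fit, so the 24 are not read as particular to the vesicle genes.

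The array background divided the vesicle genes into opposing sets. Of the 36 genes, 18 correlated with it below -0.5 and 12 above 0.5, over 20 arrays. The first set held DNM3 (r = -0.95, Spearman -0.94), SYNJ1 (-0.94, -0.92), SYT1 (-0.92, -0.89), STXBP5, CADPS, CADPS2, NSF, SNAP25, SYT11, SNAP91, SV2B, RAB3B, RAB3C and the active zone genes RIMS1, RIMS2, PCLO, ERC2 and PPFIA2. The second held NAPA (0.90, 0.93), SYNGR1 (0.88, 0.82), SYN1 (0.84, 0.86), SYN2, DNAJC5, STX1A, VAMP2, SYNGR3, CPLX2, BSN, DNM1 and NAPB. AMPH (-0.50, -0.46), SV2A, SV2C, SYN3, VAMP1 and CPLX1 lay between. These correlations are descriptions without a test, since the genes share arrays, background and normalisation.

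Such correlations were not particular to the vesicle genes. A correlation beyond 0.5 in size was found for 83.3% of the 36 genes and for 83.7% of all genes. The directions were 50% below and 33.3% above among the vesicle genes, against 33.8% below and 49.9% above among all genes. The sign of the correlation was the same within HR and within LR animals for 33 of the 36 genes. For DNM3 it was -0.96 within HR and -0.93 within LR animals, and it was -0.93 without the 2 arrays of background farthest from the median. For RAB3B it was -0.66 within HR and -0.06 within LR animals, and without those 2 arrays it was -0.26, so its correlation rests on few arrays. AMPH reached -0.36 without those arrays.

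**Figure D3:**
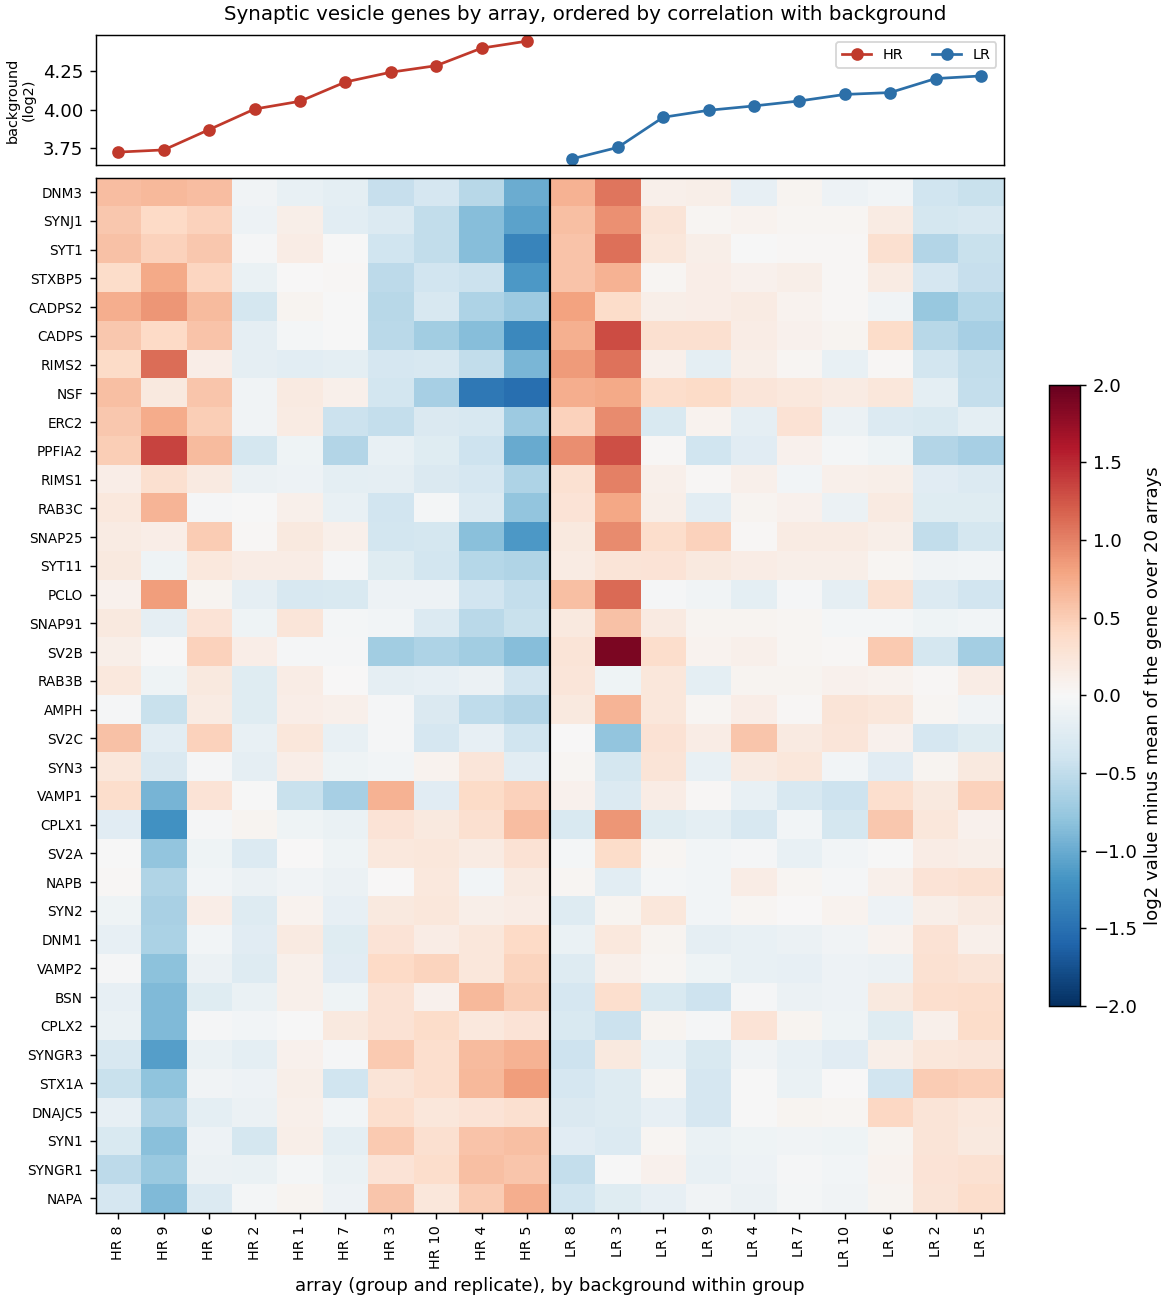
log2 value minus the mean of each gene over 20 arrays (colour) for 36 vesicle genes, ordered by their correlation with the background, with HR arrays left and LR arrays right, each ordered by the background control mean (upper panel, log2). Genes at the top, from DNM3 down, are high in arrays of low background, and genes at the bottom, such as NAPA and SYNGR1, are high in arrays of high background.

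Since the sets were chosen by this correlation, genes of 1 set rise and fall together over the arrays by that choice. In the residuals from the background the median correlation between pairs was 0.37 within the first set and 0.62 within the second, and SYT1 and SYNJ1 correlated at 0.90. Some protein families were split between positive and negative correlations and others were not. BSN and PCLO, SV2A and SV2B, and DNM1 and DNM3 each had 1 gene of positive and 1 of negative correlation with the background. The synaptotagmins and the CADPS, RIMS and RAB3 genes were all negative. The synapsins, synaptogyrins and complexins, NAPA with NAPB, and VAMP1 with VAMP2 were all positive. Some of these signs were weak, with SYN3 at 0.15, VAMP1 at 0.33, CPLX1 at 0.46, SV2A at 0.47 and SV2C at -0.28. Within LR arrays CPLX1 was at -0.05 and SV2A at -0.19. A dimmer DNM3 probe set correlated with the background at 0.50.

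**Figure D4:**
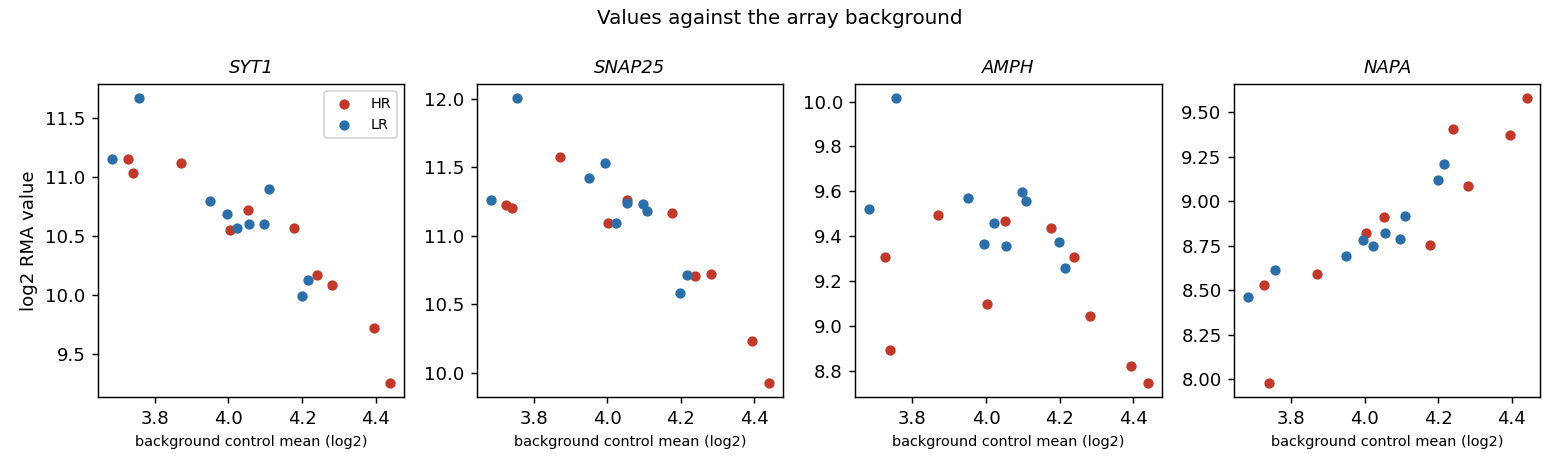
log2 RMA value of SYT1, SNAP25, AMPH and NAPA (vertical axes) against the background control mean in log2 units (horizontal axes), 1 point per animal, HR red and LR blue. SYT1 and SNAP25 decline with background, NAPA climbs, and AMPH has HR points below most LR points at several background levels.

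The sets also differed in the genomic span of their genes, which the choice of genes did not use. In the RefSeq annotation of Sscrofa11.1 the median span was 358 kb for the 18 genes of negative correlation, 33.1 kb for the 12 of positive correlation and 29.2 kb for all genes. Over the 36 genes, log10 of the span correlated with the correlation to background at -0.73 (Spearman -0.73), against -0.41 (-0.42) over 10287 genes. The value for the vesicle genes was -0.74 within HR arrays, -0.66 within LR arrays and -0.74 without LR replicate 3. Of 20 vesicle genes longer than 100 kb, 16 (80%) correlated below -0.5, compared with 57.5% of all genes of that length. Of 16 shorter ones, 2 (12.5%; SYT11 and RAB3B) did so, compared with 28.1% of all shorter genes. SYN2, at 171 kb, was the only longer gene with a correlation above 0.5. Genes are not independent replicates, and span was not separated from probe position or transcript length.

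**Figure D5:**
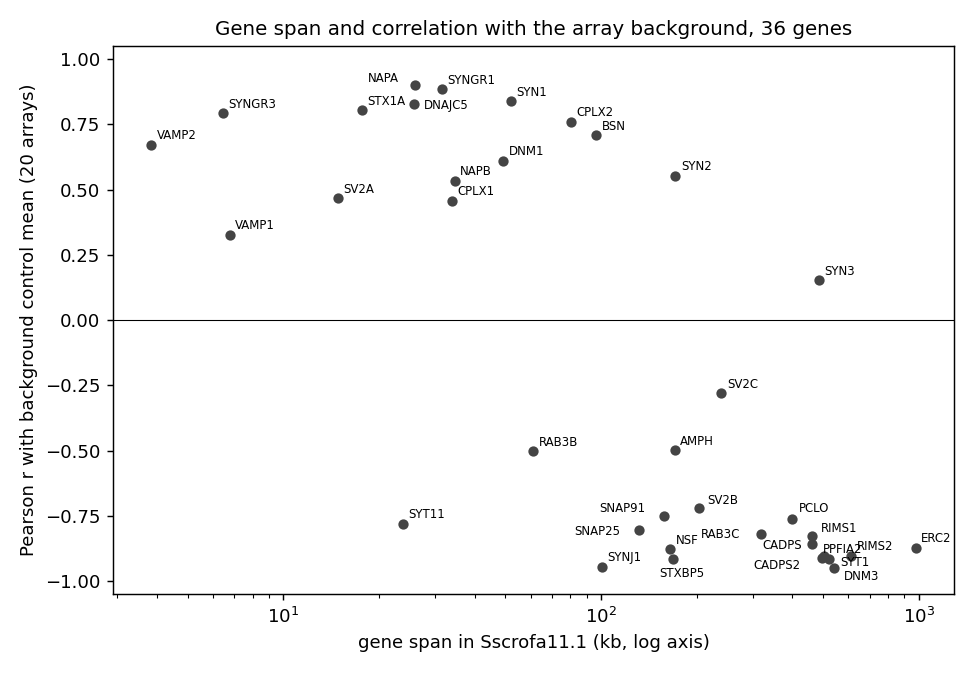
Pearson correlation of 36 vesicle genes with the background control mean over 20 arrays (vertical axis) against the span of the gene in Sscrofa11.1 in kb (horizontal log axis), 1 point per gene. Most genes above 100 kb lie below -0.5, with SYN2, SYN3, SV2C and AMPH as exceptions, and most shorter genes lie above 0, with SYT11 and RAB3B as exceptions.

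The HR minus LR differences followed the same division. Because the background averaged 4.09 in HR and 4.01 in LR animals, choosing the sets by it partly fixes these directions. The 18 genes of negative correlation were all lower in HR animals, with a median of -0.20, and the 12 of positive correlation had a median of 0.03, with 3 lower and 9 higher. Over all genes, those correlating below -0.5 had a median of -0.19 and those above 0.5 a median of 0.08. With the background as a covariate in limma, the medians of the sets were -0.08 and -0.06. Lower in HR animals were then 31 of the 36 genes (median -0.07) and 6155 of all 10317 genes (median -0.03). In that fit 4 of 36 genes were lower at an unadjusted p under 0.05 and 0 higher, beside 5.43% lower and 1.98% higher over all genes. The 4 were AMPH (-0.30 ± 0.10, limma p = 0.0059), NSF (-0.28 ± 0.12, limma p = 0.0315), SYT11 (-0.17 ± 0.07, limma p = 0.0327) and NAPB (-0.17 ± 0.07, limma p = 0.0378), each with an adjusted p of 0.627. In that fit 9 genes were lower in HR animals that were higher without the covariate (STX1A, VAMP2, CPLX2, NAPA, DNAJC5, SYN1, SYNGR1, SYNGR3 and BSN), and 5 were higher that were lower without it (CADPS2, SV2C, ERC2, PPFIA2 and DNM3). None of these 14 had a limma p under 0.05. Without LR replicate 3, 4 genes changed to higher (CPLX1, ERC2, PPFIA2 and DNM1) and 1 to lower (DNAJC5).

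Markers of several cell types and regions moved with the mean of the vesicle genes. Of 14 neuron markers outside the synapse 12 were measured, 10 were lower and 2 higher in HR animals, and their mean lay between -0.53 and 0.31 in HR and between -0.26 and 0.66 in LR animals. It correlated with the mean of the vesicle genes at 0.91 over 20 arrays, and at 0.87 without LR replicate 3. The mean of all genes followed the vesicle genes at 0.73, and at 0.87 without that array, so this was not particular to neuron markers. Astrocyte markers (8 of 8 measured, -0.44 to 0.30 in HR and -0.31 to 0.35 in LR animals) followed them at 0.68 and thalamus markers (-0.21 to 0.12 in HR and -0.19 to 1.31 in LR animals) at 0.76. Endothelial and mural markers (6 of 8, -0.34 to 0.06 in HR and -0.12 to 0.22 in LR animals) followed at 0.55. Hypothalamus markers (-0.31 to 0.32 in HR and -0.82 to 0.19 in LR animals) and those of ependyma, tanycytes and choroid plexus (4 of 7, -0.36 to 0.59 in HR and -0.51 to 0.30 in LR animals) ran the other way, at -0.77 and -0.72. Without LR replicate 3 the correlation was 0.74 for astrocyte, 0.50 for thalamus and 0.45 for endothelial and mural markers. It was then -0.56 for hypothalamus markers and -0.64 for those of ependyma, tanycytes and choroid plexus. Oligodendrocyte markers were at 0.14, and at -0.02 without that array. Microglia markers were at -0.48, and at -0.185 without it. Striatum and pallium markers (4 of 10) were at -0.599, and at -0.605 without LR replicate 3. Pituitary markers (2 of 8) were at -0.485, and at -0.376 without LR replicate 3. With the neuron marker mean as a covariate the median difference of the vesicle genes was -0.07 and 2 of 61 probe sets had a limma p under 0.05, beside 5.13% of all kept probe sets in either direction. The mean of the vesicle genes correlated with the array background at -0.70, and several marker means also followed it. They did so at -0.88 for neuron, -0.95 for astrocyte, 0.77 for hypothalamus and 0.95 for striatum and pallium markers. Thalamus and oligodendrocyte markers did so less, at -0.31 and -0.21. Shared background and cell or region content were therefore not separated here. The part of these markers in the differences was otherwise not tested.

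Other genes of the pathway were examined in the same way. Of 51 further release genes 43 were measured, 25 were lower and 18 higher in HR animals. SYT13, a synaptotagmin, averaged 9.84 in HR and 10.14 in LR animals (-0.30 ± 0.10, limma p = 0.00827), and the SNARE VTI1A differed by -0.23 ± 0.11 (limma p = 0.0439) on a probe set that can bind several transcripts. These 2 of 43 are read beside the 3.38% of all genes that were lower at that threshold, and VTI1A lost it when LR replicate 3 was left out (limma p = 0.0528) or the background was a covariate (limma p = 0.0521). Of 24 further endocytosis genes 18 were measured, with 11 lower and 7 higher, and 2 of 18 were lower at that threshold. These were endophilin A1 (SH3GL2, -0.28 ± 0.12, limma p = 0.0279) and the adaptor subunit AP2B1 (-0.53 ± 0.24, limma p = 0.0362), which had a limma p of 0.0546 without LR replicate 3. Of 22 vesicular transporter and proton pump genes 17 were measured, with 9 lower and 8 higher. The vesicular acetylcholine transporter SLC18A3 was higher, with 5.94 in HR and 5.64 in LR animals (0.30 ± 0.12, limma p = 0.0237). Each of these 5 genes had an adjusted p of 0.861.

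Outside the list, the genes whose values followed the standardised mean of the vesicle genes most closely over the 20 arrays were RCAN2 (r = 0.86), REPS2 (0.86), CTNND2 (0.84), RBFOX1 (0.84) and AAK1 (0.84), followed by ATP2B2, GABBR2, NEFH, RAB6B and LNX1 (0.80). Without LR replicate 3 the 10 correlations lay between 0.67 and 0.83.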

How the data were processed

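Total RNA of 20 hypothalami was hybridised to 20 Porcine Snowball arrays. The authors scanned the arrays with GCOS 1.1.1 and normalised them by the robust multichip average (RMA), which left the deposited values in log2 units. RMA gives all arrays nearly the same distribution, so a shift of most transcripts in 1 direction cannot be seen. The detection filter of the study was not applied to the deposited table.

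Of 47722 probe sets that were not among 123 controls, the 50% of higher mean were kept (mean at least 5.21). The platform annotation named 26426 of the 47722 and 16415 of the kept probe sets. HR and LR were compared with limma 3.58.1 in R 4.3.3 (two-sided, Benjamini-Hochberg adjustment over 23861 probe sets, threshold 0.05). The script was tested on simulated data. Each gene is given by its brightest kept probe set. The number of arrays limits the precision. Levels of different probe sets were not compared with each other.

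The genes and lists were chosen with earlier results of these data known. Every gene is given with its difference. Values by group are given for SNAP25, VAMP2, STX1A, SYT1, SYN1, genes with a kept probe set at an unadjusted p under 0.05, and the 2 of smallest p in each role group. From other lists, genes at an unadjusted p under 0.05 are named, and the 10 genes most like the mean of the list. Replicate numbers follow the order of deposition and pair no animals. Alternatives covered the filter, normalisation, array weights, a rank-sum test, covariates, probe sets per gene and leaving out arrays.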

Additional observations from a re-analysis of the deposited data

Results flagged for a closer look

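In groups of 10 arrays, 8 of 54 sets of values had 1 array far from the rest by Dixon's criterion, which flags about 1 in 20 groups by chance. HR replicate 9 was lowest for NAPB at 8.50, where the next HR array had 8.98. It was also lowest in the mean of the SNARE recycling and chaperone genes, at -0.48, and of the vesicle membrane and pool genes, at -0.58, where the next HR arrays had -0.17 and -0.18. LR replicate 3 was highest in LR animals for AMPH at 10.02, for SNAP91 at 10.68, for RIMS1 at 9.08 and for SV2B at 9.73, where the next LR arrays had 9.60, 10.30, 8.36 and 8.38. It was also highest in the mean of all 36 vesicle genes, at 0.44, where the next LR array had 0.16.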

How the results depend on the processing

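No probe set passed the adjusted threshold under any alternative in which this was counted, which excludes the fit without the arrays of extreme background. The median difference of the vesicle genes stayed below 0 in all alternatives, between -0.09 and -0.03. Single arrays left out gave -0.14 (HR replicate 9) to -0.06 (HR replicate 7). The count of vesicle probe sets at an unadjusted limma p under 0.05, 4 as reported, was 2 after repeated quantile normalisation, 1 with array weights, 2 with the neuron marker mean as covariate and 0 without the 7 arrays of extreme background (HR replicates 4, 5, 8, 9 and 10 and LR replicates 3 and 8), an alternative chosen after seeing the data. Over all kept probe sets these counts were 884, 1997, 1224 and 522, beside 1091 as reported. Leaving out 1 array gave 1 (without HR replicate 4, HR replicate 5 or LR replicate 3) to 9 (without LR replicate 5), with 7 without HR replicate 6 or 8. The counts with 1 array left out are not set beside those over all kept probe sets. They are therefore not read as particular to the vesicle genes. With the background as covariate the differences of STX1A, VAMP2, SYN1 and SYNGR3 were -0.0527, -0.0454, -0.0499 and -0.0218. Without the arrays of extreme background SYT1, SNAP25 and SNAP91 were at 0.0913, 0.0380 and 0.0495, and STX1A, VAMP2 and SYN1 at -0.0618, -0.0197 and -0.0252. Leaving out 1 array moved STX1A between -0.0110 and 0.171 and VAMP2 between -0.0128 and 0.128. The cause was not tested. The array medians differed by -0.02 (HR minus LR) before centring, which removes this difference. No paired analysis was made, because HR and LR are different animals and the labels pair none of them. The precision of 10 animals a group limits the comparison.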
